A study of Mus musculus with 2 samples.

Results

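The genes described here are 10 members of the BMP and TGF-β pathways, 6 ligand genes (Tgfb1, Tgfb2, Tgfb3, Bmp2, Bmp4 and Bmp7) and 4 genes read as responses (Id1, Id2, Id3 and Bambi), among the 28000 features counted in single cells of mouse prostate tumours. They were listed by name, with no threshold on a measured value, and each matched 1 feature in both libraries. The cells came from prostates of DoubleTg (hHGFtg-hMETtg-PBCre) and TripleTg (hHGFtg-hMETtg-Ctnnb1-PBCre) mice, with 1 library of each, labelled as prostatic adenocarcinoma and prostatic carcinoma. Animals of both genotypes carried a human HGF transgene (hHGFtg) active in the whole body, a human MET transgene (hMETtg) at the H11 locus behind a stop cassette, and the Cre recombinase PB-Cre4, whose probasin promoter removes the cassette in prostate epithelium. TripleTg mice carried in addition 1 Ctnnb1 L(Ex3) allele, from which the same recombinase deletes an exon and leaves a stabilised β-catenin, so stromal, endothelial and immune cells were not the intended site of either switch. The background was mixed, the labels gave no age for the sampled mice, and the number of animals behind each library was not stated. With 1 library per genotype, a difference between genotypes cannot be told apart from a difference between libraries, and no test or p-value is given.

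TGF-β and BMP proteins are secreted dimers that bind paired type I and type II serine/threonine kinase receptors. TGF-β and activin receptors phosphorylate SMAD2 and SMAD3, BMP receptors phosphorylate SMAD1, SMAD5 and SMAD9, and either set enters the nucleus with SMAD4. The Id genes, which encode inhibitors of basic helix-loop-helix transcription factors, are classical BMP targets, and Bambi encodes a decoy receptor without a kinase domain that dampens both branches and is also known as a β-catenin target. In the prostate, BMP4 and BMP7 are known to restrain ductal branching during development, and TGF-β is known to restrain epithelial growth and to act on stromal cells.

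After limits on genes per cell (over 200 and under 7000) and on mitochondrial transcripts (under 15%), 10598 of 12072 DoubleTg cells and all 9492 TripleTg cells were kept, with 256880958 and 229655259 unique molecular identifiers (UMIs, each marking 1 captured transcript). The median depth was 16761 UMIs per cell in DoubleTg and 20097 in TripleTg, and 29 cell barcodes occurred in both libraries. Each library was clustered without the members or the other pathway genes, and clusters were named from marker genes. Epithelial-like clusters held 7021 DoubleTg and 6678 TripleTg cells, of which 4975 and 4407 were luminal-like and 1871 and 909 basal-like. Each of 8 epithelial markers had a UMI in 79.5 to 99.5% of the DoubleTg and 88.9 to 99.6% of the TripleTg epithelial-like cells. The stroma was represented by 953 and 647 fibroblast-like, 66 and 97 smooth muscle-like and 39 and 25 Schwann-like cells, and endothelial-like clusters held 278 and 246 cells. Immune cells were macrophage-like (283 and 431), dendritic-like (96 and 47) and, in DoubleTg only under these names, T or NK-like (438 cells). In TripleTg, T-cell genes such as Gzma and Cd3g led a mixed cluster of 145 cells that was left unnamed. Seminal vesicle-like clusters held 126 and 613 cells, and 749 TripleTg cells lay in 2 epithelial-like clusters led by cornified envelope and hair genes such as Sprr1b, Asprv1, Tchh and Krt73, here called the cornified-gene clusters. The unnamed clusters, mostly shallow or mixed, held 1424 DoubleTg and 1321 TripleTg cells with median depths of 1561 and 2571 UMIs. In TripleTg they included 594 cells led by haemoglobin and lung surfactant genes (Sftpc, Sftpa1) and 31 cells led by liver genes (Fgb, Apoa1).

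A level below is the sum of a gene's UMIs over the cells of a class per 1000000 UMIs of that class (CPM), and a difference between libraries is the log2 ratio of 2 such levels, TripleTg over DoubleTg. Intervals are 95% and cover counting error only, so they say nothing of the spread between animals. Ranges over clusters describe 1 library each, since clusters of 1 library are not replicates. The share of all genes whose cluster ranges did not overlap between libraries was not counted. Free RNA from lysed cells also gives UMIs in cells that do not express a gene. The summed level of the 8 epithelial markers in macrophage-like cells, which should lack them, was 808.8 CPM in DoubleTg and 2074.4 CPM in TripleTg, against 19978.5 and 19627.9 CPM in luminal-like cells. The same sum was higher in other classes that should lack them, at 4444.9 and 5493.5 CPM in fibroblast-like, 6237.6 and 5525.7 CPM in smooth muscle-like, 4007.4 and 3262 CPM in endothelial-like and, in DoubleTg, 5695.9 CPM in T or NK-like cells. The part of epithelial RNA in the stromal, endothelial and immune values below was not tested. Classes of 1 name also differed in their markers between libraries. The basal markers summed to 14864.9 CPM in DoubleTg and 5248.6 CPM in TripleTg basal-like cells and the fibroblast markers there to 1294.7 and 148.7 CPM, and in smooth muscle-like cells the fibroblast markers summed to 721.6 and 4175.9 CPM. Their part in the basal-like and smooth muscle-like differences below was not tested. The 5 immune markers summed to 82.6 CPM in DoubleTg and 736.5 CPM in TripleTg luminal-like cells, and their part in the luminal-like values of genes that immune cells express, such as Tgfb1, was not tested.

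In DoubleTg, all 6 ligand genes had their highest level outside the epithelial-like cells. Tgfb3, Bmp2, Bmp4 and Bmp7 were highest in fibroblast-like cells, Tgfb1 in T or NK-like cells and Tgfb2 in Schwann-like cells. In TripleTg 4 of the 6 had their highest level outside the epithelial-like cells, and the exceptions, Bmp2 and Bmp7, were highest in the cornified-gene clusters. The share of all genes that were highest outside the epithelial-like cells was not counted, so these counts describe the 6 ligand genes only. Because luminal-like cells were many and deep (77.2% of all DoubleTg and 57.4% of all TripleTg UMIs), the class with the highest level was often not the one with most transcripts. Epithelial-like cells held 89.4% of the UMIs of all genes in DoubleTg and 89.1% in TripleTg. Of all Bmp2 UMIs they held 68.6% in DoubleTg and 91.1% in TripleTg, and of all Tgfb2 UMIs 74.0% and 88.6%. These shares were thus below the all-gene share in DoubleTg and near it in TripleTg. For Bmp4 the epithelial-like share was 21.0% in DoubleTg and 61.3% in TripleTg. The fibroblast-like share of Bmp4 was 65.2% and 14.3%, against 3.76% and 2.44% of the UMIs of all genes.

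**Figure D1:**
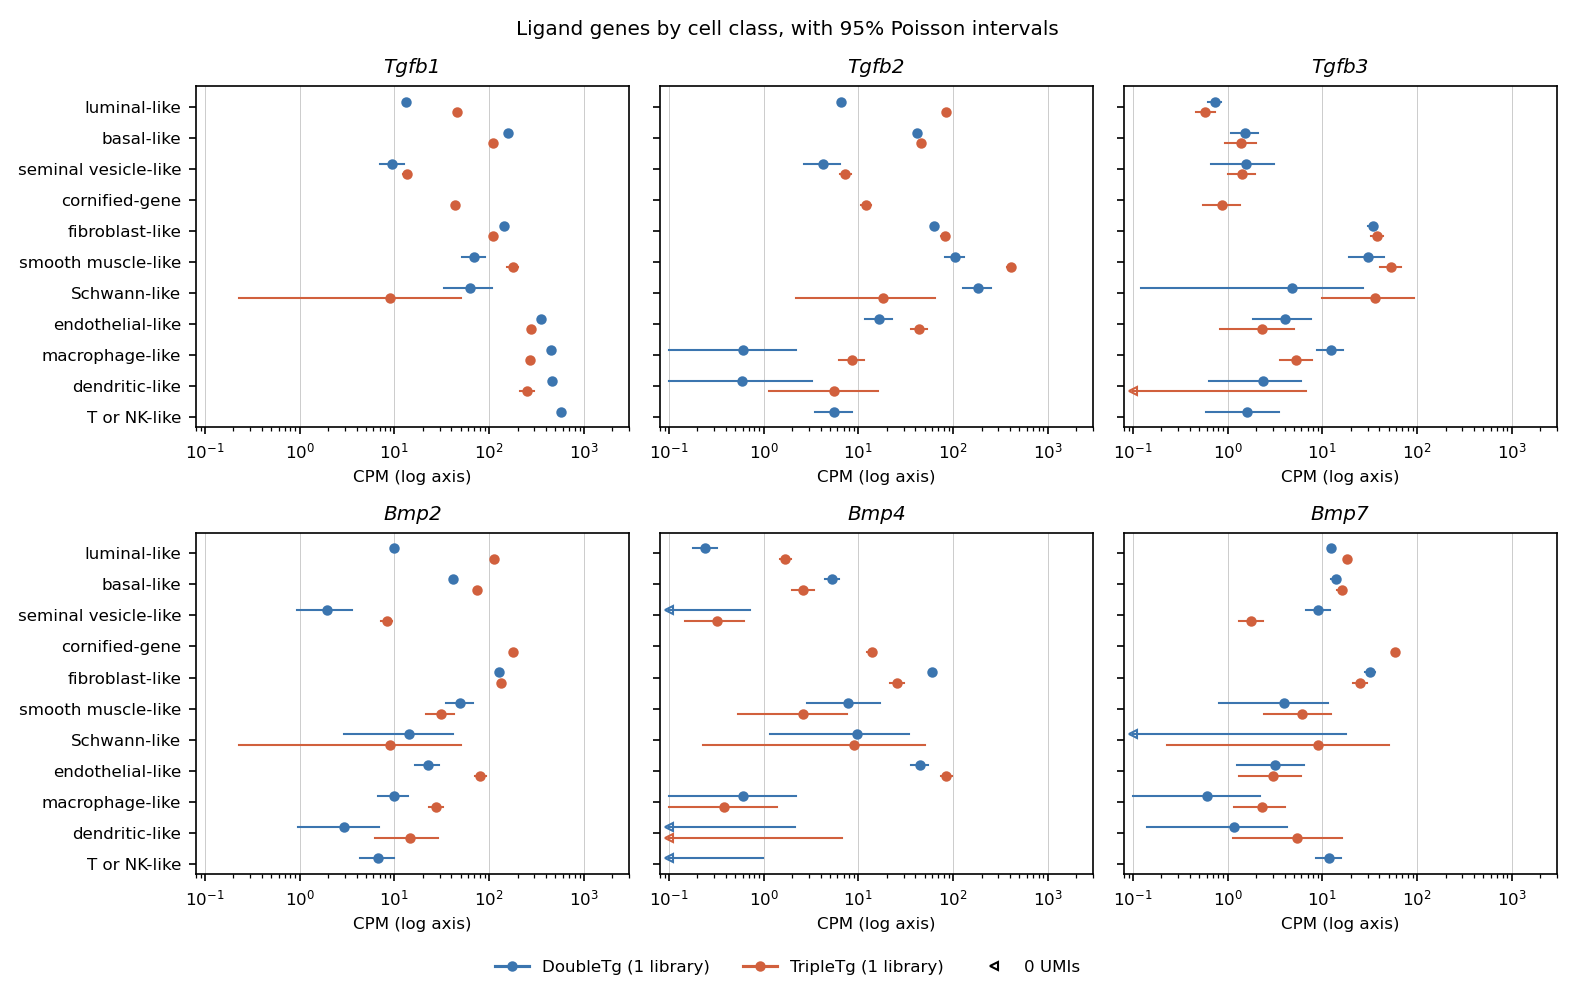
Levels of the 6 ligand genes in CPM (log axis) by cell class, with 1 point per library and 95% Poisson intervals, an open triangle marking 0 UMIs. The luminal-like points of Tgfb2 and Bmp2 lie apart between the libraries (6.53 against 84.2 CPM and 9.99 against 112 CPM), and those of Tgfb3 stay under 1 CPM in both.

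Tgfb1 encodes the most widely expressed TGF-β, made by many immune and vascular cells. The gene (ENSMUSG00000002603) lies on GRCm38 chr7:25687002-25705077 on the plus strand. In DoubleTg its level was 572.7 CPM in T or NK-like, 456 CPM in dendritic-like and 454.3 CPM in macrophage-like cells, and 355.5 CPM in endothelial-like cells. The dendritic-like and macrophage-like levels did not differ beyond their intervals (424.5 to 489.2 and 431.5 to 478.1 CPM). In TripleTg endothelial-like cells had 279.6 CPM, macrophage-like cells 270.8 CPM and dendritic-like cells 251.6 CPM, with overlapping intervals. Immune-like cells, which held 3.40% of all DoubleTg UMIs, gave 32.0% of the Tgfb1 UMIs of that library, and in TripleTg 2.53% of the UMIs gave 11.4%. The 2 groups were made up differently, since T or NK-like cells, a name that no TripleTg cluster carried, gave 15.6% of the DoubleTg Tgfb1 UMIs. Macrophage-like cells alone gave 1483 of the 13791 Tgfb1 UMIs of DoubleTg and 1422 of the 13639 of TripleTg, and dendritic-like cells gave 778 and 138. Within the epithelium basal-like cells were the higher source, with 160.2 CPM against 13.4 CPM in luminal-like cells of DoubleTg, a 12.0-fold difference, and 109.9 against 45.4 CPM in TripleTg, a 2.42-fold difference. Between libraries the luminal-like level was 3.39-fold higher in TripleTg (log2 ratio 1.76, interval 1.70 to 1.83), while the basal-like level was lower (−0.54, −0.62 to −0.47), beside the lower basal marker sum of that class in TripleTg. Tgfb1 in luminal-like clusters ran from 4.61 to 39.7 CPM over 10 DoubleTg clusters and from 35.1 to 50.1 CPM over 8 TripleTg clusters. These ranges overlapped only through the DoubleTg cluster of cycling cells, led by Ube2c and Mki67, at 39.7 CPM. Tgfb1 was detected in 6.57% of DoubleTg and 18.9% of TripleTg luminal-like cells after each cell was thinned to 5000 UMIs (30.3 and 62.1% before), against 2.27 and 7.90% of seminal vesicle-like cells.

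Tgfb2 encodes the TGF-β with low affinity for the type II receptor, which therefore depends on the co-receptor encoded by Tgfbr3. It lies at chr1:186622792-186705989 on the minus strand (ENSMUSG00000039239). In DoubleTg its level was 181.9 CPM in Schwann-like cells (38 UMIs, interval 128.7 to 249.6), 103.7 CPM in smooth muscle-like, 63.6 CPM in fibroblast-like and 41.8 CPM in basal-like cells, and 6.53 CPM in luminal-like cells. The Schwann-like and smooth muscle-like intervals touched (82.1 to 129.2 CPM for the latter). In TripleTg smooth muscle-like cells had 407.7 CPM, luminal-like cells 84.2 CPM, fibroblast-like cells 81.8 CPM and basal-like cells 46.3 CPM. The luminal-like and fibroblast-like levels of TripleTg did not differ beyond their intervals (82.6 to 85.8 and 74.5 to 89.6 CPM), whereas in DoubleTg the fibroblast-like level was 9.75-fold above the luminal-like one. Luminal-like Tgfb2 was 12.9-fold higher in TripleTg (log2 ratio 3.69, 3.61 to 3.77), and 10 DoubleTg clusters at 2.90 to 13.8 CPM did not overlap with 8 TripleTg clusters at 28.2 to 188.3 CPM. The TripleTg cluster at 188.3 CPM was led by Pbsn, Tgm4 and Defb50, secretory genes of the prostate. Basal-like cells barely differed (0.15, 0.02 to 0.27), and the cornified-gene clusters stood low, at 10.47 and 15.8 CPM. After thinning, 3.11% of DoubleTg and 27.9% of TripleTg luminal-like cells had a Tgfb2 UMI (15.3 and 61.0% before), against 0.746 and 2.67% of macrophage-like cells.

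The stretches upstream of 3 ligand genes are shown because these ligand genes differed between the libraries, Tgfb1 and Tgfb2 being higher in luminal-like cells of TripleTg and Bmp4 lower in its fibroblast-like cells, although Bmp4 was higher in luminal-like cells at under 5 CPM. They are the 250 bases before the start site, 5′ to 3′ on the gene's strand, from RefSeq on GRCm38.p6, at chr7:25686752-25687001 (plus), chr1:186705990-186706239 (minus) and chr14:46390670-46390919 (minus). The capitals mark CTTTGT, 1 of 2 TCF/LEF core words searched on both strands.
Tgfb1: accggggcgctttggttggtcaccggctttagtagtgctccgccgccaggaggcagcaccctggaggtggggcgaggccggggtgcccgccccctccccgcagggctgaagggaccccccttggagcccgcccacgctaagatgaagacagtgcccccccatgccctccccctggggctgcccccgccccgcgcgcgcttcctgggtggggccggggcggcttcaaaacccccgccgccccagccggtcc
Tgfb2: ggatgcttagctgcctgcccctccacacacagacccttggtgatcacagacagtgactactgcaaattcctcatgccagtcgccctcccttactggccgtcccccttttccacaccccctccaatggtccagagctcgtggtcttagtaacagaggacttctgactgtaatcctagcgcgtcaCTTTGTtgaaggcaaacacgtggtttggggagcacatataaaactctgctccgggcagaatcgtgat
Bmp4: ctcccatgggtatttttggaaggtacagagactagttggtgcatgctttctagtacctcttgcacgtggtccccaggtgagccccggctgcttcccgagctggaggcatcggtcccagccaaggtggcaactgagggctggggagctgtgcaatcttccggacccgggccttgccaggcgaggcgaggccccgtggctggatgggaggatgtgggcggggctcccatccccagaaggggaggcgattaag
RefSeq upstream stretches were matched for 5 members (Tgfb1, Tgfb2, Bmp4, Id2 and Id3). CTTTGT was found in 1 of the 5, Tgfb2, at 67 to 62 bases before the start, and in 16.5% of all 32851 stretches of that length, and CTTTGA in 0 of the 5 and in 13.8% of all. The GC-rich SMAD1/5 word GGCGCC was found in the Id2 stretch alone among the 5, at 231 to 226 bases before its RefSeq start, and in 9.59% of all stretches, and the SMAD3/4 palindrome GTCTAGAC was found in none of the 5 and in 0.167% of all. The RefSeq starts of Id2 and Id3 lie inside the longer GENCODE gene spans given below, so their stretches are upstream of the RefSeq start only. A match says only that these letters are in the window.

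Tgfb3, the third TGF-β isoform, which is known from mesenchymal cells, was found mostly in fibroblast-like and smooth muscle-like cells. It lies at chr12:86056745-86079041 on the minus strand (ENSMUSG00000021253). Its level was 34.2 CPM in fibroblast-like and 30.2 CPM in smooth muscle-like cells of DoubleTg, and 37.9 and 53.4 CPM in TripleTg. No other DoubleTg class was above 12.2 CPM (macrophage-like), and luminal-like cells were at 0.731 CPM in DoubleTg and 0.584 CPM in TripleTg. The 4 UMIs of TripleTg Schwann-like cells (36.1 CPM) had an interval of 9.83 to 92.4 CPM. Fibroblast-like Tgfb3 did not differ between libraries beyond counting error (log2 ratio 0.15, −0.11 to 0.40), and 3 TripleTg clusters at 18.9 to 56.0 CPM enclosed the 2 DoubleTg clusters at 23.8 and 45.0 CPM.

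Bmp2, a ligand of the BMPR1A and BMPR1B receptors and a strong inducer of Id genes in many cell types, had its largest source in different classes by level, fibroblast-like cells in DoubleTg and the cornified-gene clusters in TripleTg. It lies at chr2:133552159-133562885 on the plus strand (ENSMUSG00000027358). In DoubleTg the levels were 126.2 CPM in fibroblast-like, 49.9 CPM in smooth muscle-like and 41.9 CPM in basal-like cells, and 9.99 CPM in luminal-like cells. In TripleTg the cornified-gene clusters had 178.5 CPM, fibroblast-like cells 132.5 CPM, luminal-like cells 112.1 CPM, endothelial-like cells 80.6 CPM and basal-like cells 73.8 CPM. Luminal-like Bmp2 was 11.2-fold higher in TripleTg (log2 ratio 3.49, 3.42 to 3.56), and 8 TripleTg clusters at 55.5 to 196.3 CPM did not overlap with 10 DoubleTg clusters at 1.08 to 25.9 CPM. The fibroblast-like level did not differ beyond counting error (0.07, −0.06 to 0.20), although the clusters in that class did. A DoubleTg cluster led by Wif1, Mgp and Tagln had 219.7 CPM and the other 36.0 CPM, and a TripleTg cluster led by Col6a1, Crispld2 and Wnt2 had 347.3 CPM against 92.2 and 24.8 CPM in the rest. Endothelial-like Bmp2 was 3.59-fold higher in TripleTg (1.84, 1.39 to 2.32), a log2 ratio that came to 2.53 with Leiden resolution 2. In macrophage-like cells it was 9.80 CPM in DoubleTg and 27.4 CPM in TripleTg, with thinned shares of cells of 5.60 and 8.98% (median depths 10261 and 10060 UMIs) against 4.80 and 33.2% of luminal-like cells. The share of free RNA in the macrophage-like and endothelial-like values was not tested.

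Bmp4 encodes a mesenchymal BMP. It lies at chr14:46383520-46390669 on the minus strand (ENSMUSG00000021835). In DoubleTg it stood at 59.9 CPM in fibroblast-like and 44.5 CPM in endothelial-like cells, and in TripleTg at 25.8 and 85.2 CPM, so that the order of the 2 classes turned. Fibroblast-like Bmp4 was lower in TripleTg (log2 ratio −1.21, −1.49 to −0.95), with 42.3 and 78.1 CPM in the 2 DoubleTg clusters and 12.1, 21.9 and 51.2 CPM in the 3 TripleTg clusters, whose ranges overlapped. Endothelial-like Bmp4 was 1.91-fold higher in TripleTg (0.94, 0.59 to 1.29). Epithelial levels were low, 0.242 CPM in luminal-like and 5.32 CPM in basal-like cells of DoubleTg and 1.69 and 2.61 CPM in TripleTg. In 1 of the cornified-gene clusters, led by Mt4, Sprr1b and Asprv1, Bmp4 reached 36.7 CPM, against 3.81 CPM in the other. No Bmp4 UMI was found among T or NK-like cells of DoubleTg, a count of 0 whose interval reaches 0.982 CPM.

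Bmp7, an epithelial BMP of the prostate, had similar levels in luminal-like and basal-like cells. It lies at chr2:172868012-172940321 on the minus strand (ENSMUSG00000008999). In DoubleTg luminal-like and basal-like cells had 12.2 and 13.9 CPM and fibroblast-like cells 31.9 CPM, and in TripleTg these had 18.03, 16.0 and 25.3 CPM. The fibroblast-like transcripts were concentrated in the same clusters as those of Bmp2, with 57.8 CPM in the DoubleTg cluster led by Wif1 against 6.92 CPM in the other, and 66.3 CPM in the TripleTg cluster led by Col6a1 against 16.7 and 5.81 CPM. The cornified-gene clusters had 57.9 CPM, 3.21-fold above the luminal-like level of that library. Luminal-like Bmp7 was 1.47-fold higher in TripleTg (log2 ratio 0.56, 0.48 to 0.64), and its clusters overlapped, at 0.887 to 33.0 CPM in DoubleTg and 4.71 to 28.5 CPM in TripleTg. In seminal vesicle-like cells it was lower in TripleTg (−2.36, −2.97 to −1.75, on 47 and 49 UMIs).

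**Figure D2:**
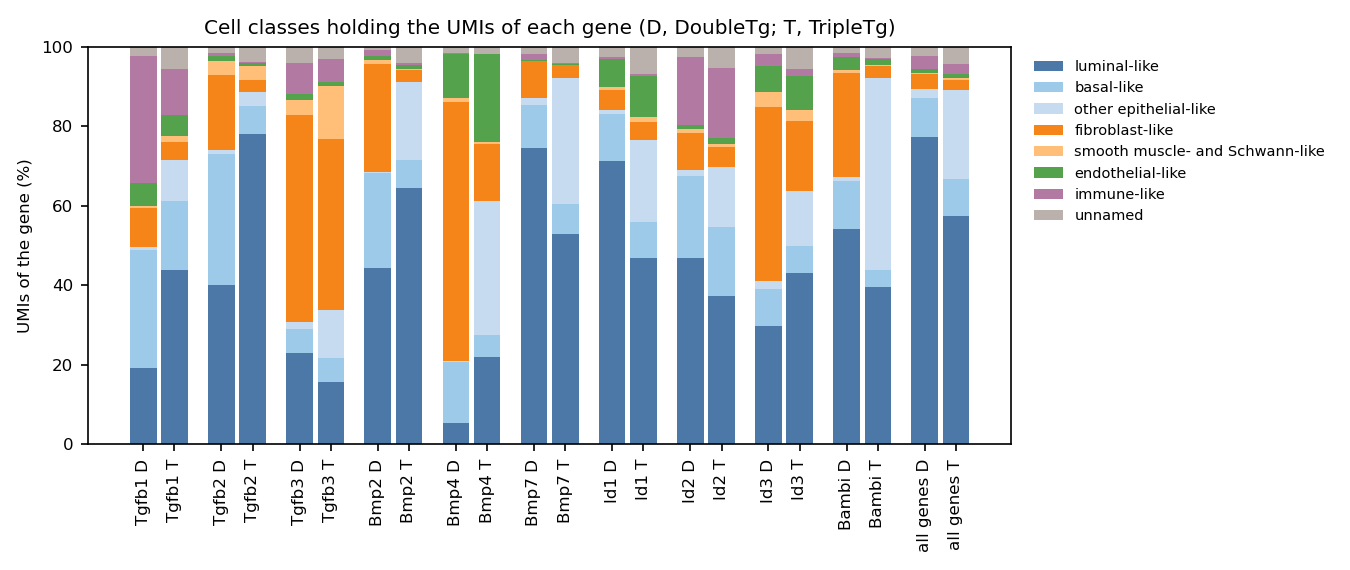
Percentage of each gene's UMIs held by each group of cell classes, with 1 bar per library and the same shares for all genes at the right. Epithelial-like classes held 68.6% of Bmp2 UMIs in DoubleTg and 91.1% in TripleTg, and fibroblast-like cells held 65.2% and 14.3% of Bmp4 UMIs.

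Id1, a BMP target gene that is well known from endothelium, was highest in endothelial-like cells. It lies at chr2:152736251-152737410 on the plus strand (ENSMUSG00000042745). Endothelial-like cells had 1223.4 CPM in DoubleTg and 865 CPM in TripleTg, 8.56-fold and 10.37-fold above the epithelial-like level of the same library. Next in DoubleTg came the 49 cells of an epithelial-like cluster without a further name, led by genes such as Foxi1 and Atp6v1g3, at 435.6 CPM, and smooth muscle-like cells at 368.7 CPM, whose intervals overlapped. Fibroblast-like cells had 205.7 and 184.4 CPM, luminal-like cells 140.4 and 79.4 CPM and basal-like cells 178.6 and 94.4 CPM in DoubleTg and TripleTg. Macrophage-like cells were lowest, at 16.2 and 15.6 CPM. Id1 was thus lower in TripleTg in luminal-like cells (log2 ratio −0.82, −0.85 to −0.79), basal-like cells (−0.92, −0.996 to −0.844) and endothelial-like cells (−0.50, −0.58 to −0.42), by less than 2-fold in each, and hardly in fibroblast-like cells (−0.16, −0.27 to −0.05). The luminal-like clusters overlapped, at 37.6 to 228 CPM (median 143 CPM) in DoubleTg and 55.2 to 160.8 CPM (median 78.5 CPM) in TripleTg. In seminal vesicle-like cells Id1 was higher in TripleTg (1.13, 0.87 to 1.40). In dendritic-like cells it was also higher, at 28.7 CPM (49 UMIs in 96 cells) in DoubleTg and 116.7 CPM (64 UMIs in 47 cells) in TripleTg (2.02, 1.46 to 2.59). The epithelial markers in dendritic-like cells summed to 1638.7 and 2720.3 CPM and the smooth muscle markers to 6.45 and 284.4 CPM, and their part in this ratio was not tested. An unnamed TripleTg cluster led by the immediate early genes Arc and Ier5l among others, 400 cells with a median of 2558 UMIs, had 567.8 CPM of Id1 and 433.2 CPM of Id3.

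Id2, which is also induced in dendritic and innate lymphoid development, was highest in immune cells. It lies at chr12:25093799-25097140 on the minus strand (ENSMUSG00000020644). Dendritic-like cells had 918.4 CPM in DoubleTg and 1010.1 CPM in TripleTg, and macrophage-like cells 832.1 and 744.6 CPM. In the epithelium basal-like cells had 290.8 and 208 CPM against 84.8 and 72.0 CPM in luminal-like cells, a difference of 3.43-fold and 2.89-fold, and the 49 DoubleTg cells led by Foxi1 had 462.1 CPM. Between libraries it was lower in TripleTg in basal-like cells (log2 ratio −0.48, −0.54 to −0.43) and fibroblast-like cells (−0.56, −0.65 to −0.47), and less so in luminal-like cells (−0.24, −0.27 to −0.20). The fibroblast-like clusters did not share that direction, since the TripleTg cluster led by Col6a1 had 553.4 CPM, above the 452.3 and 241.6 CPM of the DoubleTg clusters, and the others had 146.7 and 108.8 CPM. In the few smooth muscle-like cells it was 393.6 CPM in DoubleTg and 125 CPM in TripleTg, a log2 ratio of −1.66 that came to −0.52 with no limits on cells.

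Id3 was highest in stromal and endothelial classes. It lies at chr4:136143497-136145755 on the plus strand (ENSMUSG00000007872). In DoubleTg fibroblast-like cells had 1939.7 CPM, smooth muscle-like cells 1737.2 CPM, endothelial-like cells 1256.7 CPM and Schwann-like cells 1038.6 CPM, against 64.1 CPM in luminal-like and 157.3 CPM in basal-like cells, while the 49 epithelial-like cells led by Foxi1 had 783.8 CPM. In TripleTg the same classes had 810.7, 479.2, 861.2 and 1208.4 CPM, against 85.02 and 81.5 CPM. The smooth muscle-like log2 ratio of −1.86 came to −0.93 with no limits on cells. Fibroblast-like Id3 was thus lower in TripleTg (log2 ratio −1.26, −1.31 to −1.21), and the 2 DoubleTg clusters at 1734 and 2153.1 CPM did not overlap with the 3 TripleTg clusters at 666.8 to 911.5 CPM. The share of fibroblast-like cells with an Id3 UMI at 5000 UMIs was 92.5% in DoubleTg and 77.2% in TripleTg, against 38.8 and 20.1% of macrophage-like and 5.71% of DoubleTg T or NK-like cells. Macrophage-like Id3 was lower as well, 310.7 CPM in DoubleTg and 72.4 CPM in TripleTg (−2.10, −2.28 to −1.93), while the Schwann-like intervals overlapped (905 to 1186 and 1012 to 1431 CPM). In luminal-like cells it was slightly higher in TripleTg (0.41, 0.37 to 0.44) and in basal-like cells, whose basal marker sum was also lower in TripleTg, it was lower (−0.95, −1.03 to −0.87). The 2 basal-like clusters of TripleTg differed widely, at 67.6 CPM in 846 cells and 534.1 CPM in 63 cells, against 133.1 and 214.7 CPM in DoubleTg.

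Bambi was the response gene with the widest range over the class levels of the TripleTg epithelium, from 12.6 CPM in seminal vesicle-like cells to 332.5 CPM in the cornified-gene clusters. Its identifier is ENSMUSG00000024232. In DoubleTg it was 113.9 CPM in fibroblast-like and 63.8 CPM in endothelial-like cells, 19.7 CPM in basal-like and 11.4 CPM in luminal-like cells. In TripleTg the cornified-gene clusters had 332.5 CPM, endothelial-like cells 95.5 CPM, fibroblast-like cells 89.1 CPM, luminal-like cells 51.5 CPM and basal-like cells 33.8 CPM. Luminal-like Bambi was 4.52-fold higher in TripleTg (log2 ratio 2.18, 2.11 to 2.25) and basal-like Bambi 1.71-fold higher (0.78, 0.61 to 0.94), while fibroblast-like Bambi was lower (−0.35, −0.51 to −0.20). The luminal-like clusters overlapped between the libraries, at 3.102 to 23.1 CPM in DoubleTg and 11.6 to 127.3 CPM in TripleTg. The highest TripleTg luminal-like cluster, led by Lypd2 and defensin genes such as Defa5, also had the highest Bmp2 level of that class (196.3 CPM), and the lowest, led by Pbsn and Tgm4, had the highest Tgfb2 level. The 2 cornified-gene clusters had 354.5 and 283.1 CPM, 46.3% of the Bambi UMIs of the library in 10.39% of its UMIs. Without them the epithelial-like log2 ratio was 1.83 instead of 2.66, a choice made after seeing the data. In macrophage-like cells Bambi was 3.37 CPM in DoubleTg and 7.81 CPM in TripleTg.

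**Figure D3:**
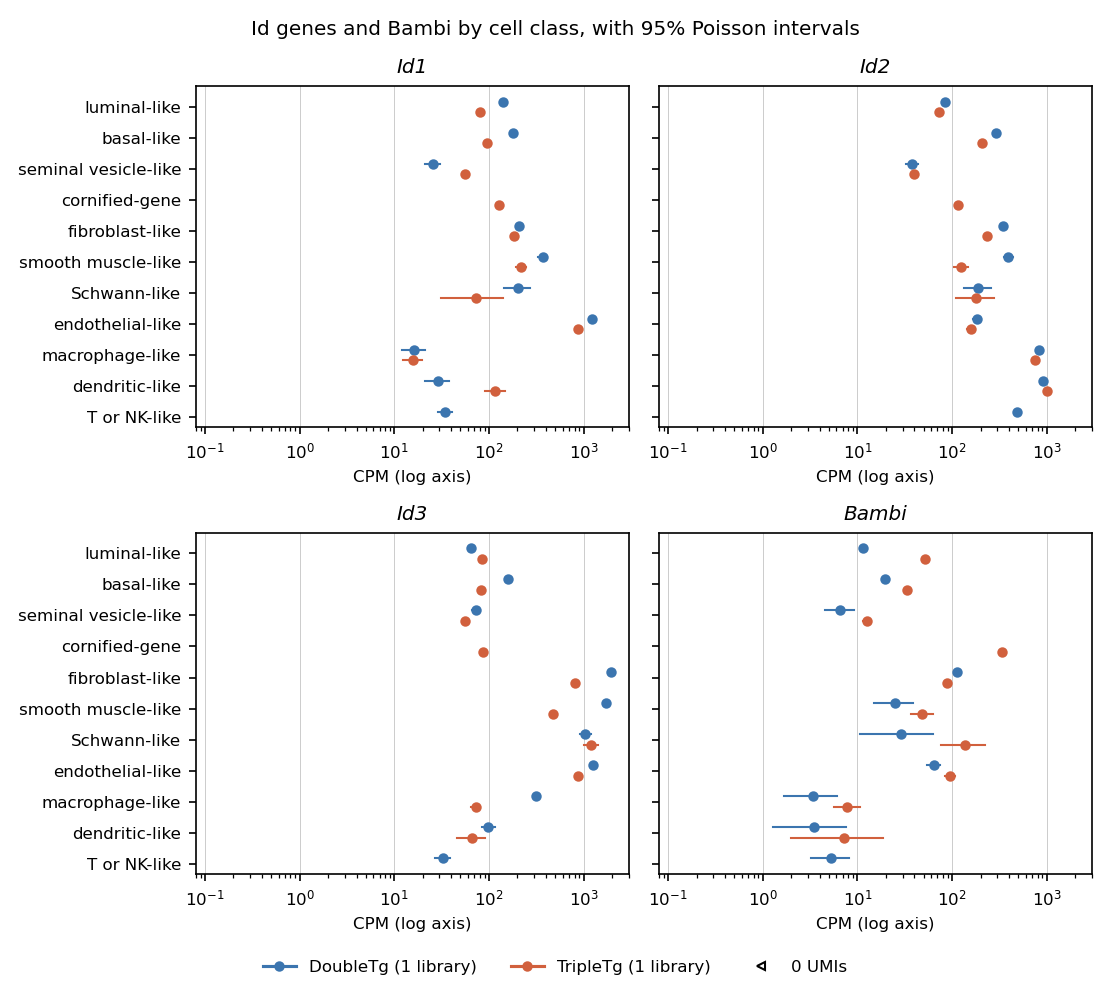
Levels of Id1, Id2, Id3 and Bambi in CPM (log axis) by cell class, with 1 point per library and 95% Poisson intervals. Id3 in fibroblast-like cells stands at 1939.7 CPM in DoubleTg and 810.7 CPM in TripleTg, and Bambi in the cornified-gene clusters of TripleTg at 332.5 CPM.

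In epithelial-like cells 8 members had at least 5 CPM in 1 library, of which 3 (Bmp2, Bambi and Tgfb2) were at least 2-fold higher in TripleTg and 0 were 2-fold lower, against 9.61% of 9104 genes higher and 12.0% lower. The median log2 ratio was 0.70 over these 8 members and −0.12 over all genes of the class. In luminal-like cells 4 of 8 (with Tgfb1 added) were 2-fold higher and 0 lower, against 11.4% of 9057 genes higher and 11.9% lower, with medians of 1.16 and 0.02. In basal-like cells 0 of 9 were 2-fold higher and 1, Bmp4, was lower, against 14.5% of 8977 genes higher and 12.7% lower, with medians of −0.48 and −0.05. In fibroblast-like cells all 10 were measured, 0 were 2-fold higher and 2, Bmp4 and Id3, were lower, against 8.51% of 10082 genes higher and 5.12% lower, with medians of −0.34 and 0.06. In endothelial-like cells 2 of 8, Bmp2 and Tgfb2, were 2-fold higher and 0 lower, against 13.2% of 9781 genes higher and 7.90% lower, with medians of 0.18 and 0.04. These shares describe the 10 chosen genes and carry no test.

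**Figure D4:**
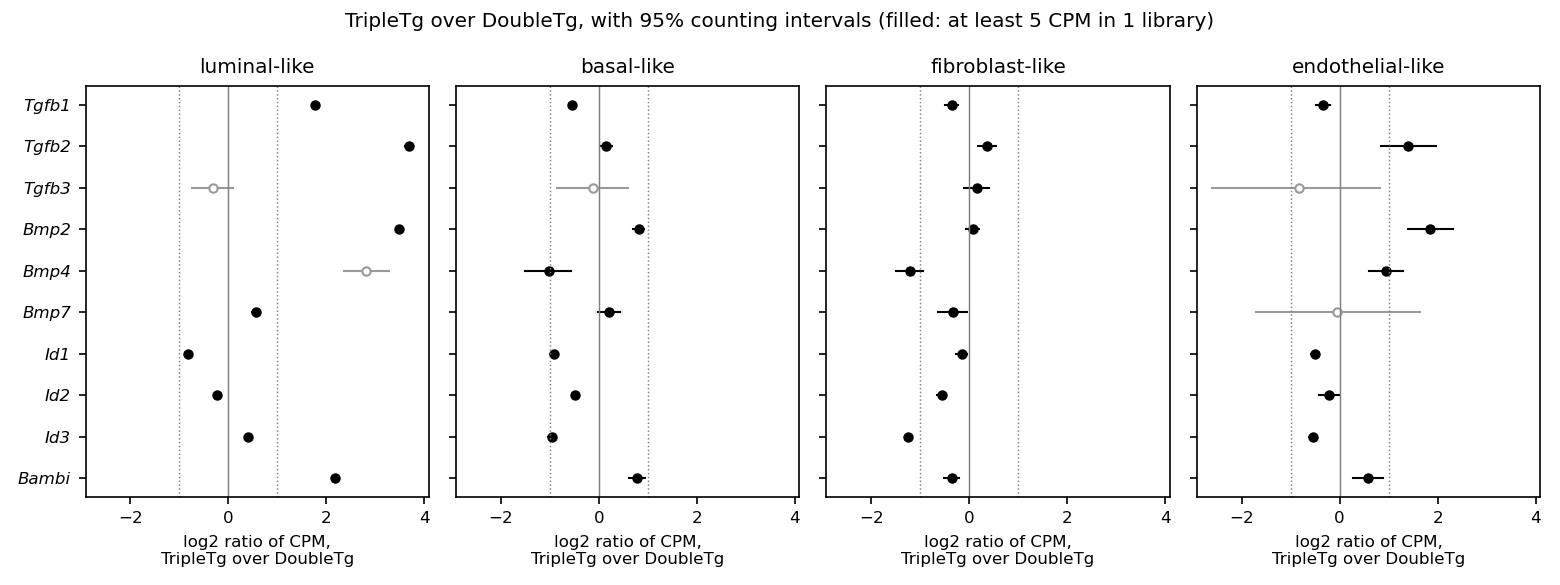
Log2 ratio of each member, TripleTg over DoubleTg, in 4 classes, with 95% counting intervals, 0 as a solid line, the 2-fold limits dotted and open points for genes under 5 CPM in both libraries. Tgfb2 and Bmp2 stand at 3.69 and 3.49 in luminal-like cells, and Id3 and Bmp4 at −1.26 and −1.21 in fibroblast-like cells.

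**Figure D5:**
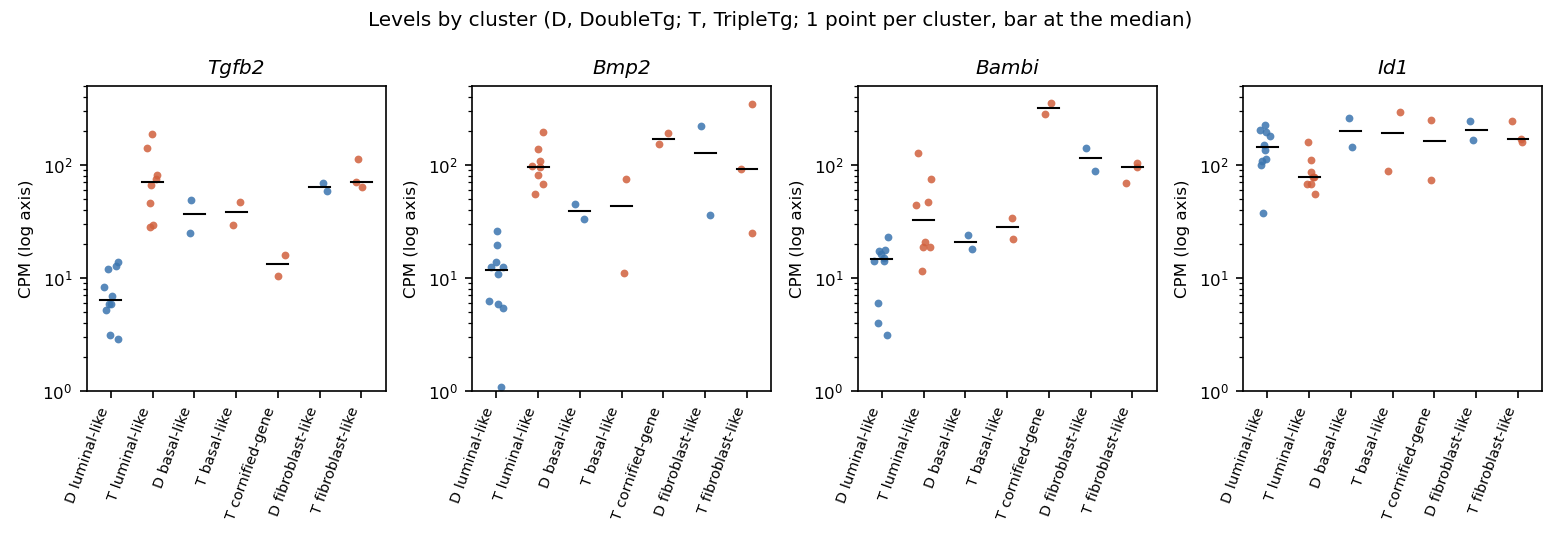
CPM (log axis) of Tgfb2, Bmp2, Bambi and Id1 in each cluster of 4 classes, with 1 point per cluster and a bar at the median; clusters of 1 library are not replicates. The luminal-like clusters of Bmp2 run from 1.08 to 25.9 CPM in DoubleTg and from 55.5 to 196.3 CPM in TripleTg.

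The hMETtg transgene allowed a comparison inside each library, since its transcript should come from cells in which the cassette was removed. In luminal-like cells at 5000 UMIs, 3285 of 4828 DoubleTg cells and 406 of 4261 TripleTg cells had an hMETtg UMI, and a cell without one may still express it. The share was 68.0% in DoubleTg and 9.53% in TripleTg luminal-like cells, against 7.84 and 1.21% of macrophage-like and 14.4 and 14.9% of fibroblast-like cells, in which the probasin promoter should not be active. In TripleTg the luminal-like share was thus below that of fibroblast-like cells, and its split is given as a split by hMETtg UMIs, not by expression of the transgene. In DoubleTg the cells with an hMETtg UMI had 8.34 CPM of Bambi against 14.8 CPM in those without one (log2 ratio −0.83, −1.19 to −0.45), Id2 was lower as well (−0.20, −0.32 to −0.07), and Id1 was nearly the same (156.8 and 160.9 CPM). In TripleTg Bambi had the other direction, with 63.1 against 47.1 CPM (0.42, 0.14 to 0.69), Tgfb1 was higher in the cells with an hMETtg UMI (0.36, 0.06 to 0.65), Tgfb2 was lower (−0.46, −0.72 to −0.20) and Id3 was lower (−0.34, −0.59 to −0.09). Bmp2 did not differ beyond counting error in either library (0.39, −0.01 to 0.80 in DoubleTg and 0.09, −0.11 to 0.29 in TripleTg).

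Of 7 TGF-β and activin receptor genes, 5 were measured in epithelial-like cells, 0 were 2-fold higher and 1 was lower, against 9.61% of all genes higher and 12.0% lower. The gene called was Tgfbr3, the co-receptor on which TGF-β2 depends, at 19.3 CPM in DoubleTg and 4.39 CPM in TripleTg (log2 ratio −2.13, −2.24 to −2.03). In fibroblast-like cells 6 were measured and 0 passed 2-fold, against 8.51% of all genes higher and 5.12% lower. There Tgfbr2, the TGF-β type II receptor, stood at a log2 ratio of 0.80. None of the 5 measured SMAD genes passed 2-fold in epithelial-like or fibroblast-like cells, against the shares of all genes just given for each class. Of the 5 BMP receptor genes 4 were measured in epithelial-like cells, 0 were higher and 1 lower, against 9.61% and 12.0% of all genes. The lower one was Bmpr1b, a type I receptor with affinity for BMP2 and BMP4. Bmpr1b was 64.1 CPM in luminal-like cells of DoubleTg and 0.251 CPM in those of TripleTg, on 12717 and 33 UMIs (log2 ratio −8.00, −8.54 to −7.51). The type I receptor gene Bmpr1a did not differ in luminal-like cells beyond counting error (−0.03, −0.09 to 0.02), and Bmpr2, the BMP type II receptor, was higher by less than 2-fold (0.97, 0.921 to 1.014). In endothelial-like cells Acvrl1, which encodes the ALK1 receptor of vessels, was 374 CPM in DoubleTg and 169.3 CPM in TripleTg (−1.14, −1.31 to −0.98).

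Among 7 feedback inhibitors 6 were measured in epithelial-like cells, 1 was 2-fold higher and 0 lower, against 9.61% of all genes higher and 12.0% lower. In luminal-like cells 3 of 6 were higher and 0 lower, against 11.4% and 11.9%. Smad7, the inhibitory SMAD induced by TGF-β, was 42.5 CPM in luminal-like cells of DoubleTg and 141.3 CPM in those of TripleTg (log2 ratio 1.73, 1.70 to 1.77), and it did not differ in fibroblast-like cells (0.03, −0.06 to 0.12). Of 12 extracellular antagonists, all measured in fibroblast-like cells, 4 were 2-fold higher there and 1 lower, against 8.51% of all genes higher and 5.12% lower. Bmper, a BMP-binding modulator, was 3.32 CPM in fibroblast-like cells of DoubleTg and 42.0 CPM in those of TripleTg (3.66, 3.13 to 4.25), and Fst, the activin and BMP antagonist follistatin, was 708.2 and 274.1 CPM (−1.37, −1.45 to −1.29). Fst had the opposite direction in basal-like cells, at 264.7 CPM in DoubleTg and 800 CPM in TripleTg. Of 9 genes for latent TGF-β binding and activation 7 were measured in epithelial-like cells, 0 higher and 3 lower, against 9.61% and 12.0% of all genes. In luminal-like cells 6 were measured, 0 higher and 0 lower, against 11.4% and 11.9%, and in basal-like cells 8 were measured, 1 higher and 3 lower, against 14.5% and 12.7%. In fibroblast-like cells 9 were measured, 1 higher and 0 lower, against 8.51% and 5.12%. Ltbp2, a matrix protein of the latent binding family, was 57.4 and 252.8 CPM in fibroblast-like cells, and Ltbp4, which anchors latent TGF-β, was 22.4 and 7.05 CPM in epithelial-like cells. The Ltbp4 log2 ratio was −0.59 (−0.76 to −0.43) in luminal-like cells and −2.39 (−2.51 to −2.27) in basal-like cells, whose basal marker sum was also lower in TripleTg.

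Of the 12 other ligand genes of the family 3 were measured in epithelial-like cells, 0 higher and 2 lower, against 9.61% of all genes higher and 12.0% lower. Inhba, the activin A subunit, was 24.5 CPM in DoubleTg and 11.2 CPM in TripleTg. In fibroblast-like cells 6 were measured, 0 higher and 2 lower, against 8.51% of all genes higher and 5.12% lower, and Gdf15, a stress-induced ligand, was 73.6 and 24.1 CPM. In luminal-like cells 3 were measured, 1 higher and 2 lower, against 11.4% and 11.9%. The higher one was Gdf15, at 4.185 CPM in DoubleTg and 14.98 CPM in TripleTg (log2 ratio 1.84, 1.72 to 1.96). Of the TGF-β target list, 9 genes had a feature and 7 were measured in epithelial-like cells, 5 higher and 1 lower, against 9.61% and 12.0% of all genes (median log2 ratio 2.01, against −0.12 over all genes). Cdkn2b, which encodes the cell cycle inhibitor p15, was 5.36 CPM in luminal-like cells of DoubleTg and 33.9 CPM in those of TripleTg. In endothelial-like cells 9 of the target list were measured, 5 higher and 0 lower, against 13.2% and 7.90% of all genes. In smooth muscle-like cells 5 of 9 were higher and 2 lower. Macrophage-like cells had 3 of 7 higher and 0 lower, and dendritic-like cells 7 of 9 and 0. For these classes the share of all genes was not counted. Higher target levels in TripleTg were thus not confined to epithelial-like cells. In fibroblast-like cells 9 of the target list were measured, 2 higher and 1 lower, against 8.51% and 5.12% of all genes. Fn1, which encodes fibronectin, was 98.4 and 685.1 CPM there, Col1a1 495.4 and 1539.2 CPM, and Tagln, a contractile gene, 1494.1 and 506.6 CPM. Col1a1 and Tagln were also among the markers that named clusters, so their values there are no independent reading. The smooth muscle marker list summed to 2742.4 CPM in the DoubleTg and 1012.3 CPM in the TripleTg fibroblast-like cells, and its part in the fibroblast-like values was not tested. Of 6 other BMP target genes 2 were measured in epithelial-like cells, 1 higher and 0 lower, against 9.61% and 12.0% of all genes. In fibroblast-like cells 3 were measured, 0 higher and 2 lower, against 8.51% and 5.12%, the lower ones being Id4 (26.0 and 9.26 CPM) and Msx1 (67.1 and 28.5 CPM).

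The genes whose pattern was most like that of Id1 over the 20 points of named classes and libraries were Ptprg (Pearson r = 0.91), Arhgap29 (0.89) and Tspan9 (0.89), among 6344 genes with at least 50 CPM in 1 class. For Bambi they were Tspan6 (0.86), Kctd11 (0.84) and Ckap4 (0.84). The points share libraries and totals, so these values describe the profiles only.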

How the data were processed

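The deposited matrices hold raw UMI counts per gene and cell, which the authors made with Cell Ranger (6.0.2 per the labels, while the DoubleTg file header names 6.1.1) from 10x 3′ v3 libraries aligned to mm10 with both transgene sequences added. The limits on cells had been applied to the TripleTg matrix only. Tissue had been dissociated with collagenase and TrypLE. Reads of overlapping genes were assigned by the authors' counting and could not be checked here.

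Each library was clustered in scanpy 1.11.5 (2000 variable genes without members or pathway genes, 20 principal components, 15 neighbours, Leiden resolution 1). A class needed 3 raised markers with a mean log2 fold of at least 2, and epithelial-like clusters a mean epithelial marker share of 80%. These naming limits and the list of 10 cornified and hair genes were set after the clusters were seen. Median depth per class ran from 2846 to 38498 UMIs.

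Counts were summed per class and given as CPM with exact Poisson intervals, shares with Clopper-Pearson intervals and ratios with conditional binomial intervals (95%). The ratio step was tested on simulated data of 28000 features with 200 changed genes, and in the simulated epithelial-like sums it recovered 100% of them past 2-fold and in the fibroblast-like sums 98%. That recovery holds only for the size of change put in, and the spread between animals was not tested. Scrublet, the only doublet caller run, called 273 DoubleTg and 0 TripleTg cells, so its calls were not used. The members and lists were chosen with earlier results of these data known. Named genes were all members, at most 5 genes of each of 9 pathway lists (highest CPM, or largest ratio with at least 20 CPM), other genes whose values bear on those of a class, and the 3 genes of most similar pattern to Id1 and Bambi. The values of 1 gene that this rule names are not reported here. Alternatives are given at the end, and no test between genotypes was possible with 1 library each.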

Additional observations from a re-analysis of the deposited data

Results flagged for a closer look

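Among luminal-like, basal-like, fibroblast-like, smooth muscle-like, endothelial-like and macrophage-like cells and genes with at least 5 CPM in 1 library, in 5 members the log2 ratio of TripleTg over DoubleTg had opposite signs in 2 classes, with both counting intervals clear of 0 and at least 1 ratio past 2-fold, and with 1 library per genotype none of these differences was tested. For Tgfb1 the luminal-like ratio of 1.76 and the macrophage-like ratio of −0.75 were 2.51 apart. For Tgfb3 the smooth muscle-like ratio of 0.82 and the macrophage-like ratio of −1.20 were 2.02 apart, on 23 and 62 UMIs in the former and 40 and 28 UMIs in the latter. That smooth muscle-like ratio came to 0.23 at 5000 UMIs per cell and to 1.97 with no limits on cells. The fibroblast markers in smooth muscle-like cells summed to 721.6 CPM in DoubleTg and 4175.9 CPM in TripleTg, and their part in that ratio was not tested. For Bmp4 the endothelial-like ratio of 0.94 and the fibroblast-like ratio of −1.21 were 2.15 apart. For Id3 the luminal-like ratio of 0.41 and the macrophage-like ratio of −2.10 were 2.51 apart. For Bambi the luminal-like ratio of 2.18 and the fibroblast-like ratio of −0.35 were 2.53 apart. Outside these 6 classes, the seminal vesicle-like ratios of Bmp7 (−2.36) and Id1 (1.13) also had the sign opposite to the luminal-like ratios (0.56 and −0.82), as did the dendritic-like ratios of Id1 (2.02, on 49 and 64 UMIs) and Tgfb1 (−0.86, against 1.76 in luminal-like cells), and these differences were not tested either.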

How the results depend on the processing

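Over 15 alternatives, of which 4 were added after seeing the data, the counts of members past 2-fold in epithelial-like and fibroblast-like cells and of ligands highest outside the epithelial-like cells each stayed within 1.5 times its value wherever the alternative applied. With no minimum CPM, 4 members in place of 3 were 2-fold higher in epithelial-like cells, the fourth being Bmp4. Of 70 member ratios in 7 classes, 22 were past 2-fold with at least 5 CPM in 1 library, a count without a share over all genes beside it. All 22 kept their direction wherever the alternative applied. There 17 stayed past 2-fold, among them smooth muscle-like Bmp4 on 6 and 3 UMIs (interval −4.23 to 0.62). Of the 5 others, Bmp4 in basal-like cells came to −0.95 with Leiden resolution 0.5, Tgfb1 in smooth muscle-like cells to 0.98 with all cells weighted equally, Id2 and Id3 in smooth muscle-like cells to −0.52 and −0.93 with no limits on cells, and Bambi in macrophage-like cells to 0.98 with TMM factors from edgeR 4.0.16, and the cause was not tested. The planned removal of Scrublet-called cells was not run, since Scrublet called 0 TripleTg cells, and leaving out the 5% of cells with the highest score stood in for it. No paired analysis was possible because each genotype had 1 library. Depth limits the small classes, among them Schwann-like (39 DoubleTg and 25 TripleTg cells), smooth muscle-like (66 and 97), dendritic-like (96 and 47) and the 49 DoubleTg epithelial-like cells without a further name.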
